A study of Mus musculus with 65 samples.

Results

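The angiopoietin and Tie genes are Angpt1 and Angpt2, which encode the ligands, and Tek (the receptor Tie2) and Tie1, which encode the receptors. They were taken by gene name from the table of stem and progenitor cells and the table of niche cells, and by Ensembl ID from the table of niche cells after 5-fluorouracil (5FU). All 4 genes were found in each table, among 44485, 44353 and 47526 genes with complete values. RNA was sequenced from 65 libraries of sorted mouse femur and tibia cells in 17 groups of 3 to 6 libraries, and levels are given as FPKM (fragments scaled by transcript length and by the mapped fragments of the library).

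Hematopoietic stem and progenitor cells were LSK cells, which lack lineage markers and carry Sca-1 and c-Kit. Among them, Primed cells were Flk2- CD34- CD49b+ (n = 3), ST cells were Flk2- CD34+ (n = 3) and MPP cells were Flk2+ CD34+ (n = 4). 5FuReserve cells came from mice on day 3 after 5FU and were sorted like Reserve cells (n = 3), although 1 of the 3 labels writes CD49- in place of CD49b-. Reserve cells were Flk2- CD34- CD49b- with no treatment in the label (n = 4). 5FU is a drug that kills dividing cells. N-cadherin reporter cells, sorted as Tomato+, came from bone and from marrow after 5FU (5Fu_Ncad_tdT_bone and 5Fu_Ncad_tdT_marrow, n = 3 each) and in homeostasis, meaning no treatment in the label (Ncad_bone and Ncad_marrow, n = 4 each). The other niche groups in homeostasis were Col2.3GFP, Cxcl12-DsR, Nestin-GFP, Ng2-rfp and Pecam-gfp reporter cells, MK cells (CD45+, marked by Pf4-Cre with R26-YFP), Mac cells (CD45+ F4/80+, without the Pf4-Cre mark and negative for CD3, B220 and NK1.1), all with n = 4, and Lepr+ cells, with n = 6. Apart from MK and Mac, the niche cells in homeostasis were gated on CD45, Ter119 and CD31 negative cells. For niche cells the sources used here give no day of 5FU, and for all mice no strain, age or sex. Each reporter group holds whatever cells its transgene marks, and the MK gate takes any CD45+ cell with a history of Pf4-Cre.

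Angpt1 is a secreted agonist that activates Tie2, the receptor tyrosine kinase encoded by Tek. Angpt2 binds the same receptor and, depending on context, blocks or weakly activates it. Tie1 binds neither ligand on its own and modulates Tie2 signalling in complexes with it. The pathway is known for stabilising blood vessels, where both receptors mark endothelium. In bone marrow it has been reported to keep Tie2-positive hematopoietic stem cells quiescent, which was not tested here. Stromal cells, megakaryocytes and stem and progenitor cells are known sources of Angpt1.

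On mm10, with GENCODE release M21, Angpt1 lies at chr15:42424723-42676977 on the minus strand and its first part overlaps Gm17473, an antisense gene on the plus strand. Angpt2 lies at chr8:18690263-18741562 on the minus strand, inside the span of Mcph1 on the plus strand. Tek lies at chr4:94739289-94874976 on the plus strand and Tie1 at chr4:118471191-118490061 on the minus strand. All 4 are protein-coding genes. No source used here states whether reads were counted by strand, so for Angpt1 and Angpt2 the reads of the overlapping gene may not be told apart. Mcph1 averaged between 2.21 FPKM (Ncad_bone) and 10.8 FPKM (MPP) over the 17 groups. Gm17473 averaged 20.0 ± 2.28 FPKM in Primed (SD, n = 3) as its highest group and 0.31 ± 0.342 FPKM in Pecam-gfp (SD, n = 4) as its lowest.

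Of the 4 genes, Tek had the largest log2 fold change of a niche group against Lepr (5.92 in Pecam-gfp), so the 250 bases before its start are shown (RefSeq, GRCm38.p6, chr4:94739039-94739288, plus strand). Capitals mark TTCC, which reads GGAA on the other strand, the core letters of sites bound by ETS factors, a family known to act in endothelial genes.
Tek: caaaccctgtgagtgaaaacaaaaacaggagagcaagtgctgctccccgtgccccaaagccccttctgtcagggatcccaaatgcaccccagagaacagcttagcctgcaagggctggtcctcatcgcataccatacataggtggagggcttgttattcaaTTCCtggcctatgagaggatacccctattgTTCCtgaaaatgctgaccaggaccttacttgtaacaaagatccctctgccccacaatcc
GGAA was searched on both strands and had 2 matches in this window, which do not overlap each other. Of 32851 windows of the same length before other gene starts, 93.4% held at least 1 match, and 76.8% held at least as many as Tek. AGATAA, which contains the core letters of GATA factor sites, had 0 matches, and 9.99% of windows held it. TGTGGT, the core letters of RUNX factor sites, also had 0 matches, and 14% of windows held it.

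Absolute depth is unknown in FPKM. Between 11649 and 14258 genes per library reached 1 FPKM, and the spacing of low values gave relative depths that differed 6.32-fold among niche libraries and 2.71-fold among niche libraries after 5FU. It gave none that could be relied on among stem and progenitor cells. Pecam-gfp cells had all 10 endothelial markers at a mean of at least 1 FPKM, Pecam1 among them at 87.1 ± 9.64 FPKM (SD, n = 4), although their label carries the CD31- gate. All 6 stem cell markers averaged at least 1 FPKM in each of the 5 stem and progenitor groups. In Lepr replicate 3, 7 megakaryocyte markers summed to 6765 FPKM, against 30.0 to 65.8 FPKM in the other 5 Lepr libraries. Nothing in the labels says that the libraries of a group came from separate mice, and p-values therefore measure only how these libraries vary.

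Angpt1, the agonist, was high in stromal cells of the marrow and low in Pecam-gfp, Ng2-rfp and Col2.3GFP cells. Its libraries held 0.517, 0.774, 1.32 and 0.676 FPKM in Pecam-gfp, 3.95, 3.52, 3.0 and 3.49 FPKM in Ng2-rfp, and 37.2 to 60.1 FPKM with a median of 56.1 FPKM in Lepr. No library of Pecam-gfp or Ng2-rfp came near the lowest of Lepr. In bulk cells of this kind, fewer cells of a type and less RNA per cell cannot be told apart.
From low to high, mean Angpt1 was 0.821 ± 0.347 FPKM in Pecam-gfp, 3.49 ± 0.39 in Ng2-rfp, 5.44 ± 1.98 in Mac, 5.80 ± 1.65 in Col2.3GFP, 16.7 ± 11.4 in MK, 31.0 ± 7.36 in Ncad_bone, 40.4 ± 4.66 in Nestin-GFP, 42.9 ± 2.65 in Cxcl12-DsR, 42.9 ± 8.33 in Ncad_marrow and 52.1 ± 9.48 in Lepr (SD, n = 4 each, n = 6 for Lepr). Neighbours in this order overlapped in range except Pecam-gfp and Ng2-rfp, and Ng2-rfp and Mac. Its antisense neighbour Gm17473 ran in a like order at a lower level, from 0.31 FPKM in Pecam-gfp to 16.9 FPKM in Lepr.

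Angpt2, the context-dependent ligand, was highest in N-cadherin reporter cells of the marrow and near 0 in both CD45+ groups. Its libraries held 58.3, 42.8, 73.5 and 90.8 FPKM in Ncad_marrow, against 13.9 to 24.0 FPKM with a median of 20.9 FPKM in Lepr. Every Ncad_marrow library lay above every Lepr library. From low to high, mean Angpt2 was 0.284 ± 0.18 FPKM in Mac, 0.658 ± 0.605 in MK, 5.97 ± 2.27 in Col2.3GFP, 7.72 ± 2.92 in Pecam-gfp, 10.4 ± 1.33 in Ng2-rfp, 20.0 ± 3.59 in Lepr, 27.0 ± 7.63 in Nestin-GFP, 31.0 ± 3.99 in Cxcl12-DsR, 33.8 ± 11.6 in Ncad_bone and 66.4 ± 20.6 in Ncad_marrow (SD, n as above). Neighbours overlapped in range except MK and Col2.3GFP, and Ng2-rfp and Lepr. Mcph1, in which Angpt2 lies, averaged 4.22 FPKM in Mac and 3.42 FPKM in Ncad_marrow, the lowest and highest groups for Angpt2.

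**Figure D1:**
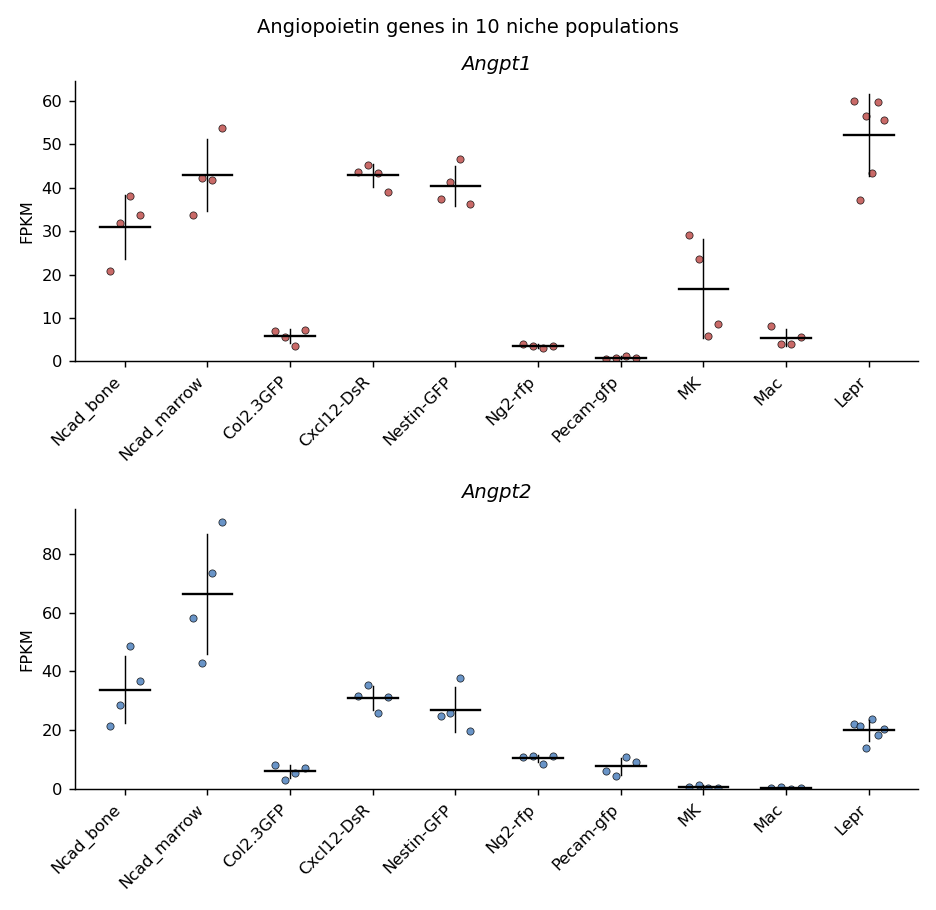
Angpt1 (upper panel) and Angpt2 (lower panel) in FPKM in the 10 niche groups in homeostasis; each point is 1 library, horizontal bars are group means and vertical lines are ±1 SD. Ncad_marrow stands above every other group for Angpt2, at a mean of 66.4 FPKM, but not for Angpt1, where Lepr has the highest mean at 52.1 FPKM, and MK libraries split widely for Angpt1.

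Each group was set against Lepr with limma on log2(FPKM + 1), with Benjamini-Hochberg adjusted p-values over 18972 genes. In Pecam-gfp all 4 genes passed an adjusted p of 0.05 (41.7% of all tested genes did), 2 higher (19.7% of all) and 2 lower (22% of all). Angpt1 was lower, with a log2 fold change of -4.86 ± 0.27 (SE, adjusted p = 1.2e-17), and the ratio of mean FPKM was 63.5-fold. Angpt2 was lower, at -1.31 ± 0.25 (SE, adjusted p = 3.4e-05).
Both ligands also passed and were lower in Ng2-rfp (2 of 4 genes, with 30.2% of all genes passing and 14.1% lower), in Mac (2 of 4, with 57.9% passing and 35.4% lower), in MK (where all 4 passed, with 58.5% passing) and in Col2.3GFP (3 of 4, with 45% passing, 28.2% higher and 16.8% lower). Their log2 fold changes were -3.55 for Angpt1 and -0.88 for Angpt2 in Ng2-rfp, and -3.07 and -4.02 in Mac. They were -1.82 and -3.71 in MK, and -2.98 and -1.64 in Col2.3GFP, with SEs of 0.27 for Angpt1 and 0.25 for Angpt2 throughout. Of these 8 adjusted p-values, the highest was 0.0055, for Angpt2 in Ng2-rfp.

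In Ncad_marrow 1 of 4 genes passed against Lepr (12.6% of all, 6.68% higher), which was Angpt2, with a log2 fold change of 1.65 ± 0.25 (SE, adjusted p = 8.8e-06). Angpt1 differed by -0.27 there (95% interval -0.81 to 0.27, adjusted p = 0.59). In Ncad_bone both ligands passed (2 of 4, 33% of all), in opposite directions. Angpt1 held 20.7, 31.9, 38.0 and 33.6 FPKM in Ncad_bone and was lower than in Lepr, at -0.74 ± 0.27 (SE, adjusted p = 0.03). Angpt2 held 21.5, 28.6, 48.5 and 36.7 FPKM and was higher by 0.69 ± 0.25 (SE, adjusted p = 0.029), its libraries overlapping those of Lepr.
Both calls were lost when single libraries were left out, Angpt1 without any 1 of Ncad_bone replicates 1 and 2 and Lepr replicates 1, 3 and 5 (adjusted p up to 0.14), and Angpt2 without any 1 of Ncad_bone replicates 3 and 4 and Lepr replicate 3 (adjusted p up to 0.15). Over all alternatives adjusted p ran from 0.0082 to 0.14 for Angpt1 and from 0.011 to 0.15 for Angpt2. None of the 4 genes passed in Cxcl12-DsR (6.17% of all) or in Nestin-GFP (3.56% of all). The largest ligand difference there was Angpt2 in Cxcl12-DsR, 0.62 (95% interval 0.12 to 1.12, adjusted p = 0.15). Its unadjusted p of 0.017 was the only one under 0.05 among the 8 values of these 2 groups.

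The ratio of Angpt1 to Angpt2 within each library separated the groups further. In Ncad_marrow it was 0.567 to 0.988 (median 0.585) and in Ncad_bone 0.783 to 1.11 (median 0.94). The 4 Ncad_marrow libraries and 3 of 4 Ncad_bone libraries thus held more Angpt2 per length than Angpt1. Angpt2 led more widely in Ng2-rfp, at 0.310 to 0.368, and in Pecam-gfp, at 0.0737 to 0.171. In Col2.3GFP the ratio lay on both sides of 1, from 0.649 to 1.85. Every library of Cxcl12-DsR (1.25 to 1.69), Nestin-GFP (1.24 to 1.84) and Lepr (1.73 to 4.08, median 2.72) held more Angpt1 than Angpt2. The ratio was highest in both CD45+ groups, at 16.0 to 43.9 (median 33.3) in MK and 7.44 to 38.6 (median 28.0) in Mac, where Angpt2 was near 0.

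**Figure D2:**
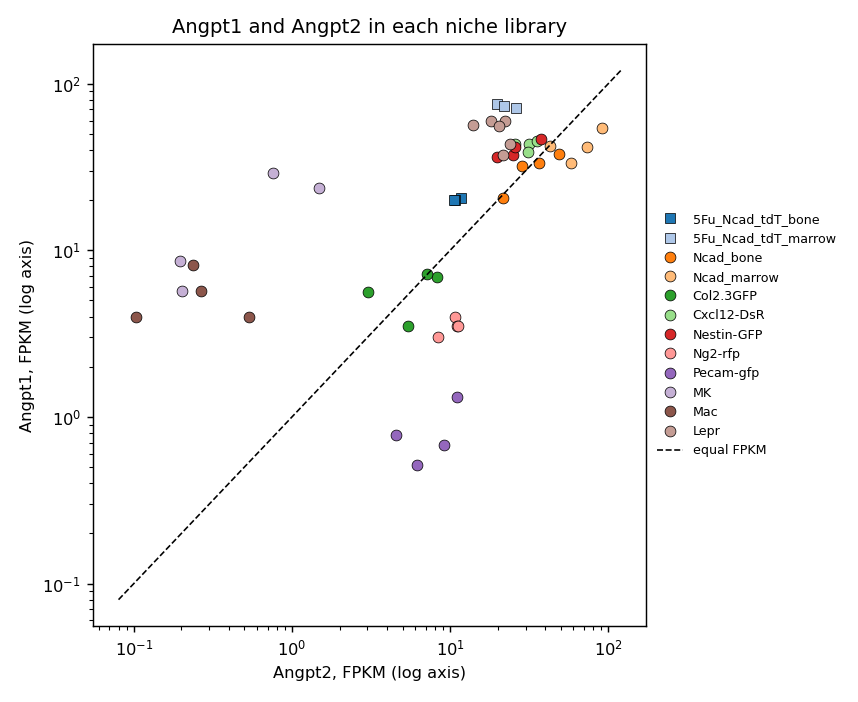
Angpt1 against Angpt2 in each niche library, in FPKM on log axes; circles are libraries in homeostasis, squares are libraries after 5FU, colours are groups and the dashed line marks equal FPKM. The 6 N-cadherin reporter libraries after 5FU lie above the line, all 4 Ncad_marrow libraries lie on or below it, and all 6 Lepr libraries lie above it. The 5FU libraries come from a separate table.

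Tek, the Tie2 receptor, was concentrated in Pecam-gfp cells. Its libraries held 107, 99.0, 83.6 and 74.9 FPKM in Pecam-gfp, against 0 to 0.981 FPKM with a median of 0.591 FPKM in Lepr. No other niche library exceeded 6.08 FPKM. Col2.3GFP followed with 2.76, 3.87, 4.33 and 2.65 FPKM, and MK with 3.10, 6.08, 0.156 and 0.635 FPKM. All other groups averaged under 1 FPKM, down to Ncad_bone, where 3 of 4 libraries listed Tek at 0. Ranges of neighbours in the order of means overlapped except Pecam-gfp and Col2.3GFP.

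Tie1, the co-receptor, followed the same leading group at lower levels. Its libraries held 24.5, 27.9, 20.9 and 27.5 FPKM in Pecam-gfp, against 0.307 FPKM on average in Lepr. MK came next at 2.78, 3.86, 0.872 and 1.19 FPKM, above every library of Mac (mean 0.463 FPKM), and no other group averaged above 0.463 FPKM. The ranges of Pecam-gfp and MK, and of MK and Mac, did not overlap, and those of all later neighbours did. In Pecam-gfp the ratio of Tek to Tie1 was 2.72 to 4.36 (median 3.78).

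Against Lepr, Pecam-gfp cells were higher in Tek by a log2 fold change of 5.92 ± 0.28 (SE, adjusted p = 3.4e-19) and in Tie1 by 4.33 ± 0.16 (SE, adjusted p = 1.7e-22). In Col2.3GFP, Tek was higher by 1.53 ± 0.28 (SE, adjusted p = 2.9e-05), while Tie1 differed by 0.14 (95% interval -0.19 to 0.46, adjusted p = 0.53). Beside this, 10 endothelial markers summed to 142 to 174 FPKM in Col2.3GFP, against 18.4 to 42.4 FPKM in Lepr, and none was at 0 in all libraries. As a share of its level in Pecam-gfp, Tek stood at 3.74% in Col2.3GFP and Tie1 at 1.67%, and the 10 markers at 0.657% to 6.84% (median 1.73%). The part of endothelial RNA in the Tek result was not tested.

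In MK, Tek and Tie1 were higher than in Lepr by 0.86 ± 0.28 (SE, adjusted p = 0.0096) and 1.19 ± 0.16 (SE, adjusted p = 5.5e-08). Set against Mac, the other CD45+ group, 3 of 4 genes passed in MK (31.9% of all), each higher (23.2% of all). Angpt1 held 29.1, 23.5, 5.71 and 8.61 FPKM in MK, against 8.15, 3.96, 3.98 and 5.68 FPKM in Mac, and the groups overlapped (log2 fold change 1.25 ± 0.29, adjusted p = 0.00096). Tek was higher by 1.08 ± 0.31 (SE, adjusted p = 0.0068) and Tie1 by 1.01 ± 0.17 (SE, adjusted p = 1.9e-05). Angpt2 differed by 0.31 (95% interval -0.24 to 0.86, adjusted p = 0.44).
The MK libraries fell into pairs. Replicates 1 and 2 were higher than replicates 3 and 4 in all 4 genes. The same 2 libraries were higher in the sum of 7 megakaryocyte markers (38285 and 38521 FPKM, against 6044 and 10975 FPKM in replicates 3 and 4) and of 10 endothelial markers (156 and 209, against 36.5 and 49.7 FPKM). Markers of Lepr stroma split alike (333 and 331, against 67.7 and 40.4 FPKM), as did the osteoblast, mural, macrophage and stem cell sums. Replicates 1 and 2 were lower in Ptprc, the CD45 gene (67.0 and 63.9, against 169 and 168 FPKM). They were also lower in the sums of B cell markers (134 and 155, against 540 and 453 FPKM) and T cell markers (29.2 and 23.0, against 76.8 and 51.5 FPKM). The part of these differences in the MK values was not tested.
Without MK replicate 2, Tek against Mac was 0.62 (adjusted p = 0.087) and Tek against Lepr 0.40 (adjusted p = 0.18), and without MK replicate 1 Tek against Lepr was 0.66 (adjusted p = 0.064). With only MK and Mac in the fit, none of the 3 calls passed (adjusted p of 0.15 for Angpt1, 0.24 for Tek and 0.062 for Tie1, the highest over their alternatives, whose lowest were 1e-05, 8.9e-05 and 2.5e-07).

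Pecam-gfp set against MK passed for all 4 genes (47.8% of all). Tek was higher by 5.07 ± 0.31, Tie1 by 3.14 ± 0.17 and Angpt2 by 2.40 ± 0.27, and Angpt1 was lower, at -3.04 ± 0.29 (SE, highest adjusted p 2.3e-09). Over the 10 niche groups the moderated F test passed for all 4 genes, with adjusted p from 8.9e-19 for Angpt1 to 1.2e-22 for Tie1, in a table where 89% of genes passed.

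**Figure D3:**
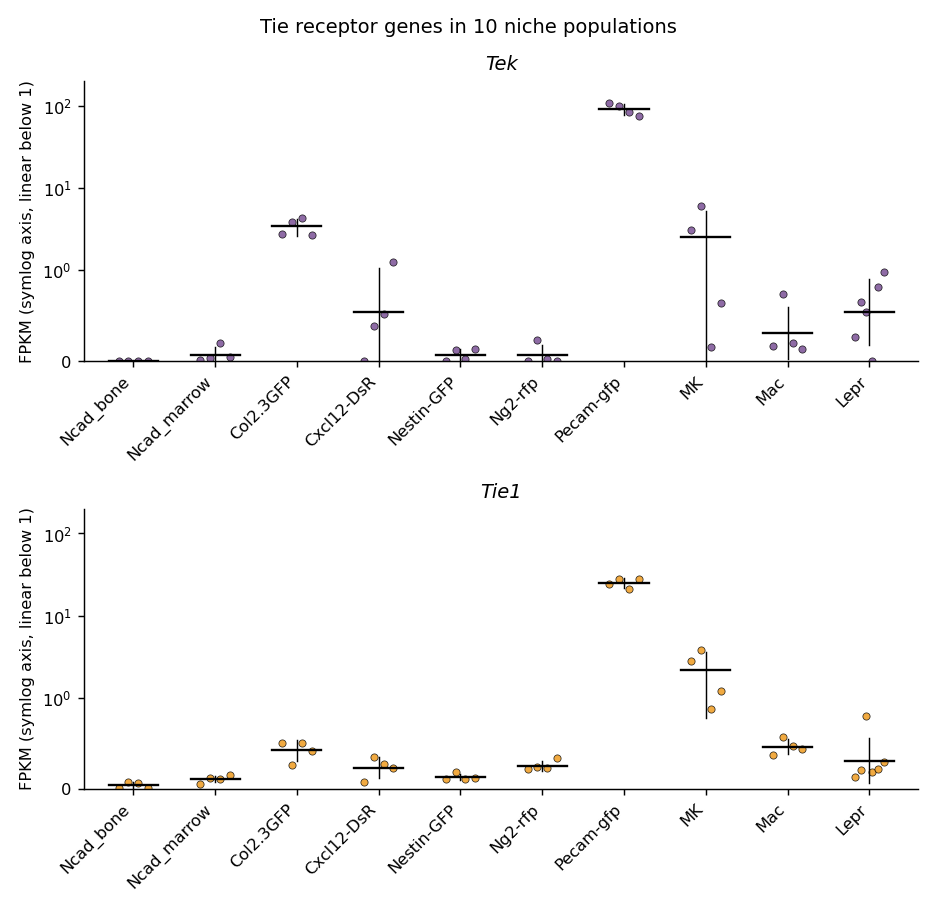
Tek (upper panel) and Tie1 (lower panel) in the 10 niche groups in homeostasis, in FPKM on an axis that is linear below 1 and logarithmic above; points are libraries, horizontal bars are means and vertical lines are ±1 SD. Pecam-gfp lies far above all others for both genes, at means of 91.1 and 25.2 FPKM, with Col2.3GFP and MK next for Tek and MK next for Tie1.

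Bone and marrow N-cadherin reporter cells differed in their ligands, and the pattern was not the same after 5FU. In homeostasis, Angpt2 was lower in Ncad_bone than in Ncad_marrow (values above), with 1 of the 4 genes passing (24.6% of all). Its log2 fold change was -0.96 ± 0.27 (SE, adjusted p = 0.0077), and the ranges overlapped. The call was lost with a pseudocount of 0.1 (adjusted p = 0.064) and with only both groups in the fit (0.072), and over all alternatives adjusted p ran from 0.0026 to 0.072. Angpt1 held 20.7, 31.9, 38.0 and 33.6 FPKM in Ncad_bone and 33.6, 42.3, 41.7 and 53.9 FPKM in Ncad_marrow, a difference of -0.47 (95% interval -1.06 to 0.12, adjusted p = 0.27). Tek and Tie1 averaged under 0.15 FPKM in both groups.

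After 5FU, Angpt1 held 20.5, 20.0 and 19.9 FPKM in 5Fu_Ncad_tdT_bone, against 75.2, 73.9 and 71.8 FPKM in 5Fu_Ncad_tdT_marrow. Angpt2 held 11.7, 10.8 and 10.7 FPKM in bone, against 19.7, 21.9 and 26.2 FPKM in marrow. Bone lay below marrow in every library for both ligands. Tek and Tie1 stayed under 1 FPKM in all 6 libraries, at most 0.53 and 0.332 FPKM, and were not tested there. Both tested genes passed (22.9% of 13738 genes did, 10.4% lower). The log2 fold change was -1.82 ± 0.10 for Angpt1 (SE, adjusted p = 0.00013) and -0.96 ± 0.15 for Angpt2 (SE, adjusted p = 0.0052).
The difference between these differences was tested on 14 libraries of both tables. A constant fold offset of a gene between tables nearly cancels there only if the gene lies well above 1 FPKM in every group, as both ligands did. The difference passed for 1 of 2 genes (18.9% of 15421 genes did). For Angpt1 the bone-to-marrow log2 difference after 5FU minus that in homeostasis was -1.35 ± 0.26 (SE, adjusted p = 0.0033). For Angpt2 it was -0.96 at both times, and the difference had a 95% interval of -0.82 to 0.81 (adjusted p = 1).

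The ratio of Angpt1 to Angpt2 was 1.75 to 1.87 in bone and 2.73 to 3.81 in marrow after 5FU, and above 1 in all 6 libraries. In homeostasis it was above 1 in 1 of 8 libraries of bone and marrow. The tables may have been normalised apart, and no single group was tested between them.
Markers moved with the same groups. After 5FU, 6 osteoblast markers summed to 13071 to 15678 FPKM in bone, against 3735 to 4345 FPKM in marrow, and 6 markers of Lepr stroma to 3808 to 4026 FPKM in bone, against 11774 to 15049 FPKM in marrow. In homeostasis the osteoblast sums were 10714 to 11821 FPKM in Ncad_bone and 7145 to 8765 FPKM in Ncad_marrow, and the Lepr stroma sums 18956 to 24522 and 23086 to 27352 FPKM, which overlapped. The 6 mural markers, of the cells around vessels, summed to 1537 to 1852 FPKM in bone, against 815 to 1188 FPKM in marrow after 5FU, and to 90.6 to 245 FPKM in Ncad_bone, against 8.51 to 12.3 FPKM in Ncad_marrow. After 5FU nearly all of the mural sum was Acta2, at means of 1679 FPKM in bone and 1026 FPKM in marrow. Rgs5, Kcnj8 and Cspg4 were also higher in bone, Myh11 was alike, and Notch3 was lower in bone (1.45, against 4.29 FPKM). The 7 megakaryocyte markers summed to 8.20 to 14.1 FPKM in bone, against 57.2 to 81.5 FPKM in marrow after 5FU, and overlapped in homeostasis. The 10 endothelial markers summed to 10.7 to 19.1 FPKM in bone, against 22.2 to 43.7 FPKM in marrow after 5FU. Their sums overlapped in homeostasis. After 5FU Egfl7 had the largest share, at means of 5.51 FPKM in bone and 14.6 FPKM in marrow. Pecam1 (1.82, against 1.28 FPKM) and Esam (2.66, against 2.39 FPKM) averaged higher in bone, and all others higher in marrow. Means of Cdh5, Kdr, Flt4 and Robo4 were under 1 FPKM in both. The 6 stem cell markers summed to 26.5 to 40.9 FPKM in Ncad_bone, where 3 of them averaged at least 1 FPKM, against 4.20 to 8.93 FPKM in Ncad_marrow. After 5FU this order was reversed, at 6.69 to 7.0 FPKM in bone, against 8.06 to 11.1 FPKM in marrow. Of all these markers, Robo4 and Cldn5 (endothelial) were at 0 in all Ncad_bone libraries, and no other was at 0 in all libraries of a group. Their part in the ligand results was not tested.

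**Figure D4:**
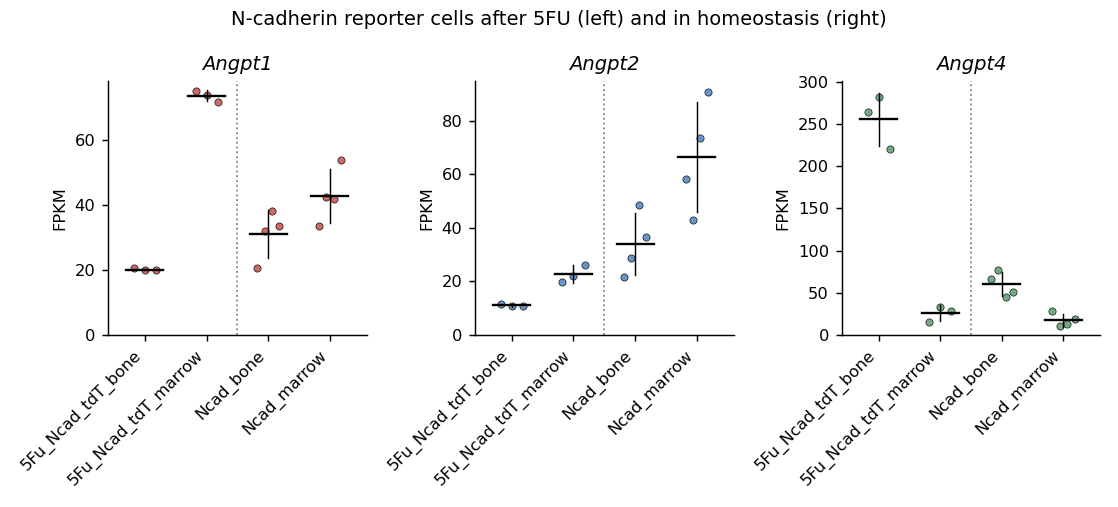
Angpt1, Angpt2 and Angpt4 in FPKM in bone and marrow N-cadherin reporter cells after 5FU (left of the dotted line) and in homeostasis (right), from 2 separate tables; points are libraries, horizontal bars are means and vertical lines are ±1 SD. Angpt1 in bone lies apart from marrow after 5FU, at about 20 against over 70 FPKM, and overlaps it in homeostasis, while Angpt4 runs the other way, highest in bone after 5FU.

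In stem and progenitor cells Angpt1 was the most abundant of the 4 genes in every group. Its libraries held 137, 151 and 161 FPKM in Primed and 101.4, 135 and 143 FPKM in ST. They held 57.9, 50.7, 53.1 and 59.5 FPKM in MPP and 61.5, 69.3 and 92.0 FPKM in 5FuReserve, against 135, 144, 138 and 125 FPKM in Reserve. Primed and ST overlapped Reserve, and MPP and 5FuReserve did not. Over the 5 groups, the order of means was MPP (55.3 FPKM), 5FuReserve (74.3), ST (127), Reserve (135) and Primed (150 FPKM), and neighbours were apart in range between MPP and 5FuReserve and between 5FuReserve and ST. These levels exceeded the 52.1 FPKM of Lepr cells in number, but the tables may have been normalised apart and no test was made between them.

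Angpt2 was low in all 5 groups and highest in MPP. The means of Primed (0.585 FPKM), ST (0.575 FPKM) and 5FuReserve (0.134 FPKM) lay below 1 FPKM. Angpt2 held 0.968, 1.54, 1.64 and 0.954 FPKM in MPP, against 0.501, 0.249, 0.188 and 0.228 FPKM in Reserve. No MPP library overlapped Reserve, while all neighbours in the order of the 5 means overlapped. Mcph1, in which Angpt2 lies, also had its highest mean in MPP, at 10.8 ± 1.64 FPKM, against 7.63 ± 2.50 FPKM in Reserve (SD, n = 4 each), with overlapping ranges. The part of Mcph1 reads in the Angpt2 values was not tested.

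Tek ran the other way, highest in Reserve cells and lowest in MPP. It held 9.21, 3.01 and 4.46 FPKM in Primed and 6.07, 5.62 and 7.49 FPKM in ST. It held 0.093, 0, 1.95 and 1.46 FPKM in MPP and 4.65, 4.78 and 5.70 FPKM in 5FuReserve, against 9.51, 12.99, 10.1 and 10.1 FPKM in Reserve. Every other library lay below every Reserve library. The order of means was MPP, 5FuReserve, Primed, ST and Reserve, with ranges apart between MPP and 5FuReserve and between ST and Reserve.
Tie1 held 10.1, 7.79 and 7.94 FPKM in Primed and 10.01, 6.47 and 9.15 FPKM in ST. It held 3.49, 0.987, 3.45 and 2.09 FPKM in MPP and 3.71, 4.36 and 2.83 FPKM in 5FuReserve, against 12.5, 11.1, 13.8 and 14.7 FPKM in Reserve. Here too every other library lay below every Reserve library, and ranges of neighbours were also apart between 5FuReserve and ST.

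Against Reserve, all 4 genes passed in MPP (41% of 16171 tested genes did), 1 higher (12.7% of all) and 3 lower (28.3% of all). Angpt1 fell, with a log2 fold change of -1.28 ± 0.13 (SE, adjusted p = 2.1e-06), as did Tek, at -2.79 ± 0.34 (SE, adjusted p = 1.5e-05), and Tie1, at -2.07 ± 0.23 (SE, adjusted p = 7.5e-06). Angpt2 rose by 0.81 ± 0.20 (SE, adjusted p = 0.0044). Angpt2 met the filter only through 2 MPP libraries and 1 Primed library, so its call is not independent of its level in MPP. The median over all tested genes was itself -0.20 in this comparison, and with median-of-ratios scaling the 4 values were -1.04, -2.67, -1.89 and 0.91 in the same order. The 6 stem cell markers summed to 143 to 145 FPKM in MPP, against 591 to 614 FPKM in Reserve, and the 7 megakaryocyte markers to 73.3 to 96.4 FPKM in MPP, against 404 to 498 FPKM in Reserve. The 4 T cell markers summed to 22.9 to 35.0 FPKM in MPP, against 7.54 to 8.95 FPKM in Reserve, with Cd3g at 0 in both groups. In each group only 1 of these 4 averaged at least 1 FPKM, and Cd3e was also at 0 in Reserve. The 5 macrophage markers summed to 24.1 to 37.5 FPKM in MPP, against 12.7 to 23.0 FPKM in Reserve. Of them 2 averaged at least 1 FPKM in MPP, where Mertk was at 0, and 1 did in Reserve. The 4 B cell markers summed to 29.4 to 45.1 FPKM in MPP, against 48.9 to 77.2 FPKM in Reserve. Of them 2 averaged at least 1 FPKM in MPP and 1 did in Reserve. Their part in the results was not tested.

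In 5FuReserve 3 of 4 genes passed (48.3% of all), each lower than in Reserve (22.8% of all). Angpt1 fell, at -0.88 ± 0.14 (SE, adjusted p = 0.00011), and so did Tie1, at -1.61 ± 0.25 (SE, adjusted p = 0.00011). Tek was at -0.94 ± 0.37 (SE, adjusted p = 0.045), and this call was lost without any 1 of the 7 libraries (adjusted p 0.06 to 0.11, and 0.0023 to 0.3 over all alternatives). Angpt2 differed by -0.18 (95% interval -0.64 to 0.27, adjusted p = 0.5). The ratio of Tek to Tie1 was 1.10 to 2.02 in 5FuReserve, against 0.686 to 1.17 in Reserve.
Other markers moved with this comparison. The 6 stem cell markers summed to 209 to 232 FPKM in 5FuReserve, against 591 to 614 FPKM in Reserve. The 4 B cell markers summed to 1160 to 1192 FPKM, against 48.9 to 77.2 FPKM in Reserve, and the 4 T cell markers to 202 to 283 FPKM, against 7.54 to 8.95 FPKM in Reserve, where Cd3e and Cd3g were at 0. The 5 macrophage markers summed to 71.9 to 94.1 FPKM in 5FuReserve, against 12.7 to 23.0 FPKM in Reserve, and the 7 megakaryocyte markers to 334 to 345 FPKM in 5FuReserve, against 404 to 498 FPKM in Reserve. Sums of the Lepr stroma list were 26.1 to 39.3 FPKM in 5FuReserve, against 2.07 to 24.8 FPKM in Reserve. Osteoblast sums were 26.4 to 32.0 FPKM, against 1.01 to 7.93 FPKM in Reserve. Mural sums were 3.79 to 6.18 FPKM, against 0.166 to 0.362 FPKM in Reserve. In 5FuReserve 3 of 6 Lepr stroma, 4 of 6 osteoblast and 2 of 6 mural markers averaged at least 1 FPKM. Sp7 (osteoblast) and Myh11 (mural) were at 0 in all libraries of both groups, as was Rgs5 (mural) in Reserve. Endothelial marker sums were 374 to 442 FPKM in 5FuReserve and 326 to 395 FPKM in Reserve. Of these, the endothelial cadherin Cdh5 held 1.19, 1.92 and 1.35 FPKM in 5FuReserve and was at 0 in all 4 Reserve libraries. The part of these cells in the results was not tested.

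None of the 4 genes passed in Primed (3.87% of all) or in ST (12.7% of all) against Reserve. The receptor differences in Primed were -0.93 for Tek (95% interval -1.71 to -0.15, adjusted p = 0.2) and -0.55 for Tie1 (95% interval -1.09 to -0.01, adjusted p = 0.28). In ST they were -0.66 for Tek (95% interval -1.44 to 0.12, adjusted p = 0.29) and -0.57 for Tie1 (95% interval -1.11 to -0.03, adjusted p = 0.17). Angpt1 differed by 0.14 in Primed (95% interval -0.15 to 0.44) and by -0.11 in ST (95% interval -0.41 to 0.18). At an unadjusted p under 0.05, Tek and Tie1 would pass in Primed and Tie1 in ST. Over the 5 groups, all 4 genes passed the moderated F test, with adjusted p from 1.3e-06 for Angpt1 to 0.0065 for Angpt2, in a table where 66.3% of genes passed. Angpt2 entered this test, too, only through 2 MPP libraries and 1 Primed library.

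**Figure D5:**
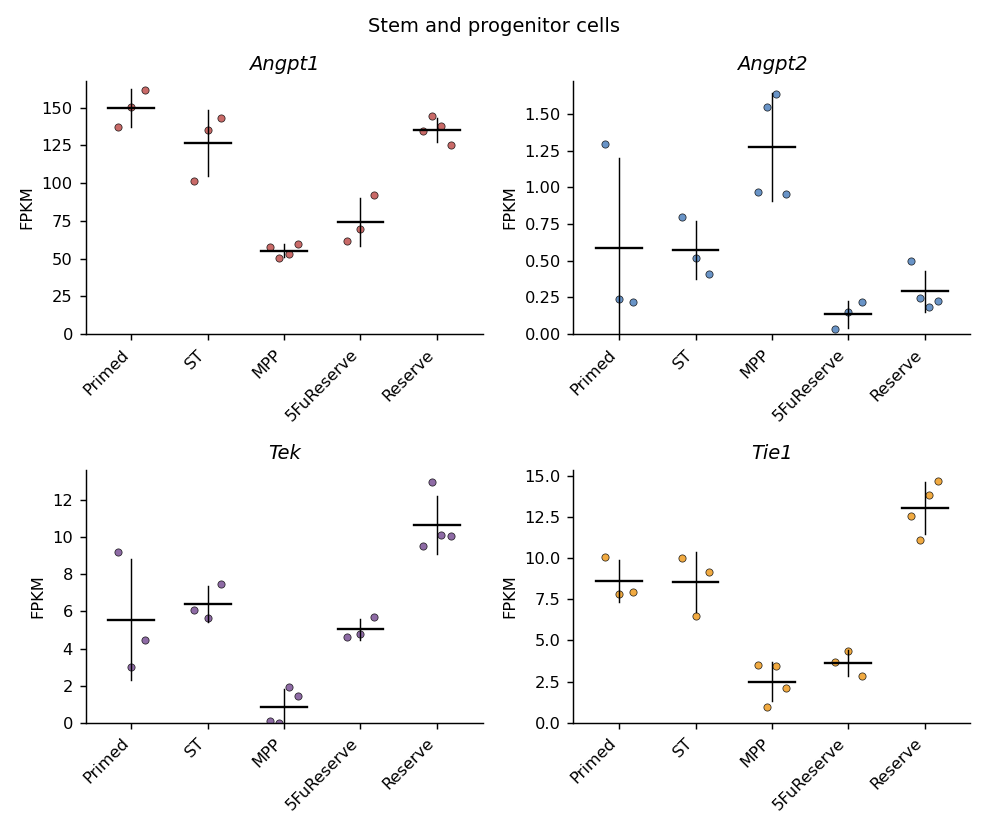
Angpt1, Angpt2, Tek and Tie1 in FPKM, each on its own axis, in Primed, ST, MPP, 5FuReserve and Reserve cells; points are libraries, horizontal bars are means and vertical lines are ±1 SD. Angpt1, Tek and Tie1 are lowest in MPP, and Reserve libraries lie above all others for Tie1 and for Tek, whereas Angpt2 is highest in MPP at a mean of 1.28 FPKM.

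A list of 44 further genes of the pathway covered the third ligand Angpt4, receptor partners and sheddases, adaptors, effectors, and angiopoietin-like relatives. In MPP against Reserve, 35 were tested, 2 rose and 18 fell (57.1% passed, against 41% of all tested genes, 12.7% higher and 28.3% lower), with a median log2 fold change of -0.52, against -0.20 over all tested genes. Foxo1, a transcription factor that Akt holds out of the nucleus, averaged 1.23 ± 0.368 FPKM in MPP and 4.30 ± 0.542 in Reserve (SD, n = 4 each; log2 fold change -1.26 ± 0.16, adjusted p = 2.2e-05). Pik3r1, a regulatory subunit of PI3-kinase, averaged 38.0 ± 11.4 FPKM in MPP and 103.7 ± 29.1 in Reserve (-1.43 ± 0.24, adjusted p = 0.00029). Mmp14, a membrane protease, fell, at -1.98 ± 0.28 (SE, adjusted p = 6.2e-05), and so did the integrin subunit Itga5, at -1.12 ± 0.20 (SE, adjusted p = 0.00047).
Pik3r1 was also the only list gene of 35 that passed in Primed (-1.09 ± 0.26, adjusted p = 0.032), which is 2.86%, against 3.87% of all. In ST it fell (-1.56 ± 0.26, adjusted p = 0.00097), as did Vegfa and Mmp14, which is 8.57% of the list, against 12.7% of all. In 5FuReserve 9 rose and 14 fell of 35 (65.7% passed, against 48.3% of all), with a median of -0.28 against -0.03 over all. Dok2, an adaptor that binds activated Tie2, averaged 84.7 ± 18.2 FPKM in 5FuReserve (SD, n = 3) and 19.6 ± 2.28 FPKM in Reserve (SD, n = 4), a log2 fold change of 2.04 ± 0.24 (SE, adjusted p = 6.8e-06). The small GTPases Rac1 and Rhoa rose by 1.06 ± 0.14 and 1.27 ± 0.18 (SE, adjusted p of 2.9e-05 and 5.1e-05). Foxo3 fell, at -1.45 ± 0.13 (SE, adjusted p = 4.3e-07).

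In Pecam-gfp against Lepr 42 list genes were tested, 8 were higher and 20 lower (66.7% passed, against 41.7% of all), with a median of -0.30 against -0.03 over all. Ptprb, the phosphatase that dephosphorylates Tie2, held 41.2, 40.7, 26.5 and 27.0 FPKM in Pecam-gfp and averaged 0.155 FPKM in Lepr (4.89 ± 0.17, adjusted p = 6e-23). The endothelial nitric oxide synthase Nos3 was higher by 1.76 ± 0.10 (SE, adjusted p = 8.8e-17). Svep1, a large matrix protein reported to bind Tie1, was lower, at 0.242 ± 0.093 FPKM in Pecam-gfp (SD, n = 4) and 10.8 ± 1.11 FPKM in Lepr (SD, n = 6; -3.24 ± 0.13, adjusted p = 2e-21). The relative Angptl2 was lower, at -3.41 ± 0.22 (SE, adjusted p = 9.7e-16).
In the other comparisons the same 42 list genes were tested. Against Lepr, the share of them that passed was near the share of all genes in Col2.3GFP (5 higher and 13 lower, 42.9% against 45% of all), Nestin-GFP (0 and 2, 4.76% against 3.56%), Ncad_marrow (3 and 4, 16.7% against 12.6%), Mac (5 and 21, 61.9% against 57.9%) and MK (10 and 17, 64.3% against 58.5%). It was 47.6% against 33% in Ncad_bone (16 higher and 4 lower), 16.7% against 6.17% in Cxcl12-DsR (3 and 4) and 38.1% against 30.2% in Ng2-rfp (7 and 9). In MK against Mac, 18 were higher and 4 lower (52.4% against 31.9%), and in Pecam-gfp against MK 17 and 12 (69% against 47.8%).

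Angpt4, the third angiopoietin and a Tie2 ligand, was higher in bone than in marrow among N-cadherin reporter cells. It held 66.0, 76.9, 45.5 and 51.2 FPKM in Ncad_bone, against 28.1, 10.8, 12.7 and 18.6 FPKM in Ncad_marrow, a log2 fold change of 1.77 ± 0.28 (SE, adjusted p = 1.1e-05). After 5FU it held 264.9, 281.7 and 220.8 FPKM in bone, against 15.2, 33.4 and 28.8 FPKM in marrow (3.32 ± 0.28, adjusted p = 0.00062). Its libraries of bone and marrow did not overlap at either time, and the difference was larger after 5FU by 1.55 ± 0.45 (SE, adjusted p = 0.03).
Of 42 list genes tested in Ncad_bone against Ncad_marrow, 13 were higher and 5 lower (42.9% passed, against 24.6% of all), with a median of 0.28 against 0 over all. Angptl7 averaged 123 ± 19.7 FPKM in Ncad_bone and 0.0488 ± 0.0444 FPKM in Ncad_marrow (SD, n = 4 each; 6.88 ± 0.21, adjusted p = 5.3e-24). The adaptor Shc1 was higher by 1.43 ± 0.19 (SE, adjusted p = 4.3e-07) and Angptl1 lower, at -2.24 ± 0.35 (SE, adjusted p = 6.7e-06). After 5FU 4 of 36 were higher and 5 lower in bone (25% passed, near the 22.9% of all). Angptl7 was again higher, at 29.8, 27.7 and 23.3 FPKM in bone and at most 0.079 FPKM in marrow (4.75 ± 0.16, adjusted p = 2.4e-05). Svep1 was lower there, at -2.0 ± 0.17 (SE, adjusted p = 0.00055) and Pak1, a kinase downstream of Rac, higher by 1.54 ± 0.20 (SE, adjusted p = 0.0033).
In the test between these 2 differences, 3 of 39 list genes were higher and 9 lower (30.8% passed, against 18.9% of all). Shc1 was lower, at -2.20 ± 0.29 (SE, adjusted p = 0.00021), with 21.6 ± 0.534 FPKM in bone and 37.8 ± 2.99 FPKM in marrow after 5FU (SD, n = 3 each). Angptl7 and Svep1 were also lower (-2.13 ± 0.22 and -1.54 ± 0.22, adjusted p of 3.7e-05 and 0.00038), and Angptl1 was higher (3.02 ± 0.62, adjusted p = 0.0048). Angptl7 was near 0 in marrow both after 5FU and in homeostasis. Its value therefore rests on the bone levels of separate tables, where an offset would not cancel.

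As a description, the genes most like each member were ranked by Pearson's r of log2(FPKM + 1), over 42 niche libraries and over 17 stem and progenitor libraries that share their groups and sorting. Tek and Tie1 had an r of 0.951 with each other in niche libraries and 0.824 in stem and progenitor libraries. Among niche libraries Tek was most like Cdh5 (0.985) and the VEGF receptor gene Kdr (0.983), followed by Ushbp1, Mmrn2 and Fam167b. Tie1 was most like Dnase1l3 (0.984) and Kdr (0.98), followed by Ccm2l, Mmrn2 and Robo4. These rest largely on the 4 Pecam-gfp libraries, which lead both genes.
The ligands had other nearest genes. Angpt1 was most like Lgals3bp (0.938), Runx1, Ubxn8, Nptn and Hnmt, and Angpt2 like Nr1d1 (0.971), a circadian repressor, B4gat1, Irx3, Gstm6 and Fam20a. Angpt1 and Angpt2 had an r of 0.598 with each other.
In stem and progenitor libraries Angpt1 was most like Meis1 (0.977), a homeobox gene of stem cells, then Slc6a15, Crebzf, Fam114a2 and Slc18a2. Tek was most like Trp53i13 (0.935), App, Zbtb20, Grb10 and Cd274, and Tie1 like Cyp4f13 (0.95), with Col4a2, P3h3 and Rbl2 also among its nearest genes. For Angpt2, low throughout, the nearest was Hk3 (0.902), then Zdhhc21, Erdr1, Samd11 and Cep83. Between the ligand and its receptor, r of Angpt1 with Tek was 0.756 in these libraries and -0.62 in niche libraries.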

How the data were processed

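RNA sequencing of sorted mouse cells was analysed from 3 sets of FPKM per gene, as deposited by the authors. A SMARTer low-input kit with Nextera made the libraries, per the labels' protocols. The submitters' processing notes name bcl2fastq 2.18, TopHat2 2.0.13, Cufflinks 2.2.1 and mm10. FPKM keeps no absolute depth. Genes with a missing value (15 in stem and progenitor cells, 28 in niche cells, 4 in niche cells after 5FU) were left out.

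All comparisons used limma 3.58.1 (R 4.3.3, with data.table, version 1.17.8). Values were log2(FPKM + 1), which understates changes of low genes, and a trend of variance with mean was fitted. Genes needed 1 FPKM or more in at least 3 libraries, and all groups in a fit shared the spread. Each test was two-sided, with Benjamini-Hochberg adjustment over every tested gene, and a gene passed under 0.05. Intervals are 95%. The fit was tested on simulated data. Sheets of group means were not used.

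The members, the pathway list, the marker lists and the comparisons were chosen with earlier results of these data known. The text names the members, per member the 5 genes with the highest r, and, for the comparisons described in detail, up to 4 passing list genes with the smallest p. Of the 5 genes for Tie1 in stem and progenitor cells, 1 is not reported here. Marker genes given by library, and list genes described beyond this rule, were chosen after their values were seen. The alternatives were a smaller pseudocount (0.1), no filter, a stricter filter (mean FPKM of 5 or more), scaling by median of ratios, a fit of the compared groups alone, a block for the replicate number, and omission of each library in turn. Libraries that share a number did not deviate together.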

Additional observations from a re-analysis of the deposited data

Results flagged for a closer look

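In groups of 4 to 10 libraries, 7 of 48 sets of member values held a library far from the others by Dixon's ratio. Chance gives about 1 of 20 for normally distributed values. That rate need not hold for FPKM, above all near 0, so no excess over chance is read from the count. Tek was 12.985 FPKM in Reserve replicate 2, above the other 3. Tek was 0.733 FPKM in Mac replicate 2, 0.233 FPKM in Ng2-rfp replicate 2 and 0.006 FPKM in Ncad_bone replicate 4, each above its group at levels under 1 FPKM. Tie1 was 0.798 FPKM in Lepr replicate 3, the library with the high megakaryocyte marker sum. Tie1 was 0.186 FPKM in Nestin-GFP replicate 2 and 0.339 FPKM in Ng2-rfp replicate 4.

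The bone-to-marrow difference of Angpt1 in N-cadherin reporter cells differed between 5FU and homeostasis, by -1.35 on the log2 scale in the test of the difference itself.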

How the results depend on the processing

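Over 76 member results and 1274 alternative settings, 1219 settings left direction and call as they were, and 58 results had no change. Log2 fold changes are given here, and the causes were not tested. A pseudocount of 0.1 ended calls for Tek in 5FuReserve (-1.06), Angpt2 in Ncad_bone against Lepr (0.71), Tek in MK against Lepr (1.45) and Angpt2 in Ncad_bone against Ncad_marrow (-0.98). It made calls against Lepr for Tek (-2.32) and Tie1 (-1.41) in Ncad_bone and Tek in Ng2-rfp (-1.84). No filter ended the call of Tek in 5FuReserve (-0.94), and median-of-ratios scaling ended it (-0.95) and that of Angpt2 in Ncad_bone against Lepr (0.57), and gave 0.021 for Angpt2 between 5FU and homeostasis. With only the compared groups, calls were lost for Tek in MK against Lepr (0.86), Angpt2 in Ncad_bone against Ncad_marrow (-0.96), and Angpt1 (1.25), Tek (1.08) and Tie1 (1.01) in MK against Mac, and made against Lepr for Tek in Ncad_bone (-0.58) and Angpt2 in Cxcl12-DsR (0.62).

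Libraries that share a replicate number correlated between -0.165 and 0.15 in their deviations. These values show no pairing by number, but they cannot exclude that samples were paired. The replicate block ended calls of Tek in 5FuReserve (-0.86) and of Angpt1 (-0.66) and Angpt2 (0.67) in Ncad_bone against Lepr, turned Tek in Cxcl12-DsR against Lepr to 0.14, and changed no other member call.

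Leaving out 1 library gave ranges against Reserve of -1.02 to -0.85 for Tek in 5FuReserve, -0.21 to 0.040 for Angpt1 in ST and -0.063 to 0.39 for Angpt2 in Primed. Against Lepr the ranges were -0.85 to -0.56 for Angpt1 and 0.50 to 0.88 for Angpt2 in Ncad_bone, 0.40 to 1.27 for Tek in MK, -0.23 to 0.16 for Tek and -0.12 to 0.024 for Tie1 in Cxcl12-DsR, and -0.078 to 0.054 for Tie1 in Ng2-rfp. They were 0.62 to 1.49 for Tek in MK against Mac and -0.19 to 0.19 for Angpt2 between 5FU and homeostasis. Counts of all called genes moved by over 1.5 times as follows. With a mean FPKM of at least 5, which tests fewer genes, they were 342 against 626 in Primed, and against Lepr 3760 against 6266 in Ncad_bone, 5335 against 8540 in Col2.3GFP, 691 against 1171 in Cxcl12-DsR, 447 against 675 in Nestin-GFP, 3180 against 5734 in Ng2-rfp, 4745 against 7909 in Pecam-gfp, 6516 against 10985 in Mac and 6462 against 11097 in MK. They were 2842 against 4673 in Ncad_bone against Ncad_marrow, 3999 against 6057 in MK against Mac (3605 with only those groups), 5489 against 9075 in Pecam-gfp against MK, 9022 against 16879 over the niche groups and 2032 against 3150 between bone and marrow after 5FU. The block gave 717 in Cxcl12-DsR and 371 in Nestin-GFP. Single omissions gave 215 to 340 in Primed (without Primed replicates 2 and 3 and Reserve replicates 3 and 4), 757 in Cxcl12-DsR (without its replicate 1), 374 to 449 in Nestin-GFP (without its replicates 1, 2 and 4), and 1983 and 2060 after 5FU (without bone replicate 2 and marrow replicate 3). FPKM gives no depth, so the reads behind members under 1 FPKM are unknown.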

Other observations

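Across the other niche groups, the third ligand Angpt4 and its relative Angptl7 stood apart from Angpt1 and Angpt2. Angpt4 averaged 30.5 ± 3.82 FPKM in Ng2-rfp (SD, n = 4), where Angpt1 was low, and 16.2 ± 5.41 FPKM in Lepr (SD, n = 6), with no overlap between their libraries (limma log2 fold change 0.93 ± 0.26, adjusted p = 0.0051). In Pecam-gfp, MK and Mac the highest Angpt4 library held 0.337 FPKM, and the mean was under 0.1 FPKM in each of the 5 stem and progenitor groups. Angptl7 held 97.1, 31.6, 56.0 and 86.1 FPKM in Col2.3GFP, against at most 0.231 FPKM in Lepr (5.87 ± 0.19, adjusted p = 7.3e-24). In Ng2-rfp it averaged 6.73 ± 0.98 FPKM (SD, n = 4; 2.83 ± 0.19, adjusted p = 1.3e-14). Apart from these groups and Ncad_bone, no group averaged 1 FPKM of Angptl7 in homeostasis. Ptprb, the phosphatase of Tie2, averaged under 1 FPKM in all 9 niche groups other than Pecam-gfp. The choice of these genes followed a look at their values.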
